A study of Mus musculus with 8 samples.

Results

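Genes of cholesterol and fatty acid synthesis were compared between cultured skin fibroblasts of a mouse strain with a mutant Nd2 and those of its control strain. The group comprised 32 genes chosen by name: 7 of the mevalonate steps, 11 of the steps from squalene to cholesterol, 6 of SREBP control and sterol transport, and 8 of fatty acid synthesis, elongation and desaturation. Of these, 28 had at least 1 probe under their symbol on the Illumina MouseRef-8 v2.0 array, 38 probes of the 25697 in all, and 27 genes with 34 probes passed the filter on detection. Hmgcs1, Mvk, Fdft1 and Acaca had no probe under these symbols, and Fasn, the fatty acid synthase, had 1 probe that was detected on 3 of the 4 Nd2-mutant and 2 of the 4 control arrays and was not tested. The other 3 probes that were not tested, of Srebf1, Insig1 and Insig2, were detected on no array.

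RNA came from primary skin fibroblasts of 12-month-old mice at the first passage, grown with fetal calf serum, and the labels name no treatment. The 4 Nd2-mutant mice were of the conplastic strain C57BL/6J-mtALR/LtJ (mice 28 and 32, male; mice 34 and 35, female), whose mitochondrial genome carries a single nucleotide exchange in Nd2, a subunit of respiratory complex I. The 4 control mice were of the conplastic strain C57BL/6J-mtAKR/J (mice 16 and 17, male; mice 15 and 37, female). After backcrossing, the authors regarded both strains as having the nuclear genome of C57BL/6J. The comparison asks whether expression of these nuclear genes differs between strains bred to differ in the mitochondrial genome. Any nuclear difference that remained cannot be told apart from the mitochondrial one here. The number in each sample label is taken here as the number of a mouse. The labels give both sexes in each strain and do not state that samples of 1 sex came from separate mice, so that part of the spread behind the p-values may be technical.

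Cells make cholesterol from acetyl-CoA through mevalonate, farnesyl diphosphate, squalene and lanosterol, and they make fatty acids from the same precursor. The genes of both routes are controlled by the SREBP transcription factors, which are held in the endoplasmic reticulum by SCAP and the INSIG proteins while sterols are plentiful, and which are carried to the Golgi, cleaved and sent to the nucleus when sterols are scarce. Sterol synthesis genes respond above all to SREBP-2 (Srebf2) and fatty acid genes to SREBP-1 (Srebf1). Cultured fibroblasts both synthesise sterols and take them up from serum lipoproteins.

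Between 10663 and 11350 of the probes were detected on an array at a detection p-value under 0.01. Control mouse 15 stood apart over all tested probes, with an average Pearson correlation of 0.934 to the remaining arrays, for which it was between 0.963 and 0.974. Probes of the same gene also disagreed most on this array. Over 4250 probes of 1846 other genes with several tested probes, the SD of a probe's deviation from its gene, on the log2 scale, was 0.288 in control mouse 15, 0.186 in control mouse 16 and between 0.111 and 0.161 in the other 6 mice. Several of the strain comparisons below are therefore also given without control mice 15 and 16. The spread among cultures, the correlations and the comparisons of the sexes were not computed without both mice. All 10 fibroblast markers were detected on all 8 arrays, with a summed intensity of 39291 to 46539 in Nd2-mutant and 32020 to 48776 in control cultures. Of the adipocyte markers, 2 of the 8 on the array, Pparg and Lpl, were detected on all 8 arrays, and Fabp4, Cidec, Retn and Cd36 on none; the summed intensity was 2265 to 7054 in Nd2-mutant and 1626 to 5079 in control cultures. The 4 sebocyte markers with a probe were detected on no array. The 8 macrophage markers summed to 1495 in Nd2-mutant mouse 35 and to at most 549 in the other mice. Of the 6 keratinocyte markers on the array, Krt14 and Krt10 were detected on all 8 arrays, and the list summed to between 197 and 1176 in Nd2-mutant and between 321 and 936 in control cultures.

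Most of the sterol and fatty acid genes had a higher mean in Nd2-mutant fibroblasts, and none passed the test after adjustment over all 10414 tested probes. In limma 0 of the 34 member probes passed an adjusted p of 0.05, the lowest being 0.639, as did 0% of all tested probes. At an unadjusted p under 0.05, 11 of the 34 probes, of 6 genes, were higher in Nd2-mutant fibroblasts (32.4%) and 0 were lower. Over all tested probes, 7.63% passed this criterion, 4.5% being higher and 3.13% lower. The 6 genes were Sqle, Lss, Cyp51 and Nsdhl of the steps from squalene to cholesterol, Acat2 of the mevalonate steps, and Insig1. The log2 fold change was above 0 for 31 of the 34 member probes, against 50.2% of all tested probes. The median log2 fold change was 0.27 over the member probes and 0.00093 over all tested probes. Without control mice 15 and 16, 27 of the 34 member probes were above 0, and these medians were 0.30 and -0.011. In 6 of the 34 probes, of 5 genes, each Nd2-mutant value lay above each control value (17.6%), and in 0 each lay below. Over all tested probes the strains did not overlap in 4.37%, with the mutant higher in 2.24% and lower in 2.13%. The methods' t-test on the same values gave 8 of 34 member probes at an unadjusted p under 0.05, all higher, against 3.3% higher and 3.4% lower of all tested probes, and 0 after adjustment.

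The filter let a probe pass when it was detected on all arrays of 1 strain. It let 5 member probes pass through the Nd2-mutant arrays alone, 3 of Nsdhl and those of Tm7sf2 and Sc5d, and 0 through the control arrays alone. A probe that passed through the mutant arrays alone had to be bright there, so that the counts above are descriptions. Among the 29 member probes detected on all 8 arrays, 8 probes of 6 genes were higher in Nd2-mutant fibroblasts at an unadjusted p under 0.05, 27.6% against 3.78% of all probes under this filter. Without control mice 15 and 16, 6 of 34 member probes were higher at an unadjusted p under 0.05 (17.6%, against 2.98% of all probes), and with 1 probe per gene 5 of 27 (18.5%, against 3.31%). Without control mouse 16 alone the number was 7 of 34 (20.6%, against 2.22%). For the count with 1 probe per gene, the brightest probe of each gene was kept. For Nsdhl this was ILMN_2594525, which passed through the Nd2-mutant arrays alone, as did the probes of Tm7sf2 and Sc5d. That count is therefore a description too.

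**Figure D1:**
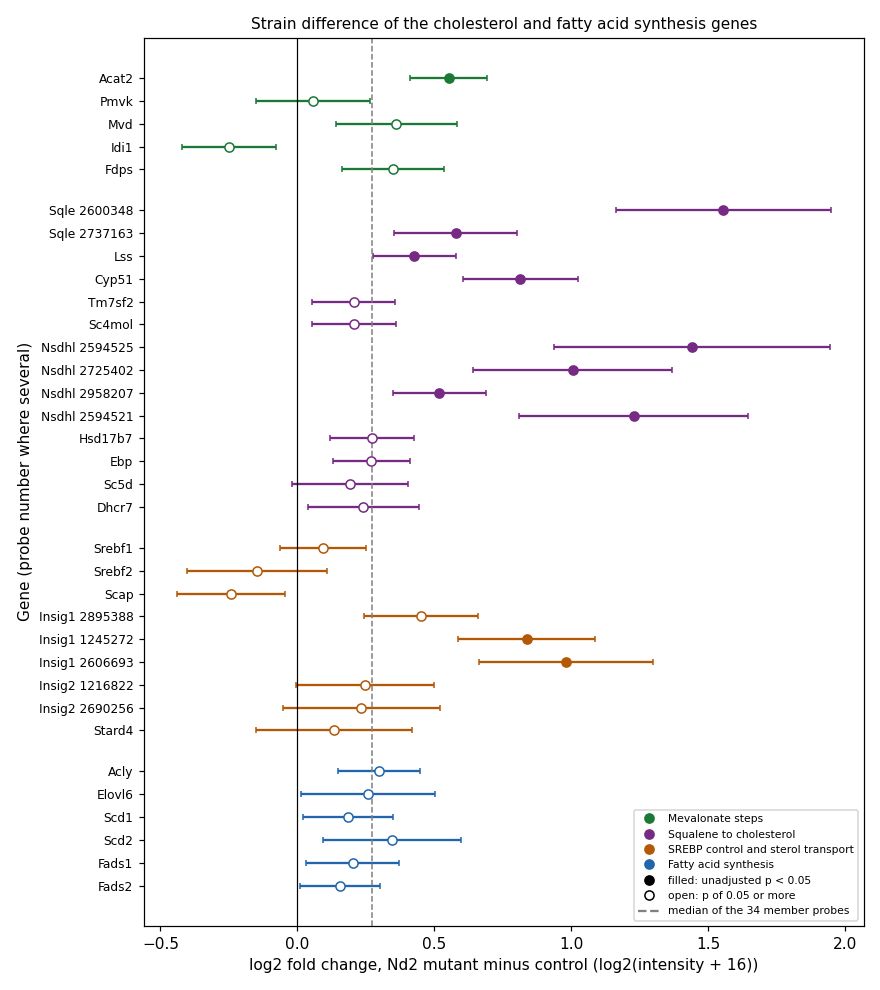
Log2 fold change of the 34 tested member probes (horizontal axis, Nd2 mutant minus control on the log2(intensity + 16) scale; bars are SEs of limma, 4 mice per strain), grouped by role on the vertical axis. Filled points have an unadjusted p under 0.05, and the dashed line is the median of the members, 0.27; 31 of the 34 points lie to the right of 0.

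In the steps from squalene to cholesterol, log2 fold changes ranged from 0.19 to 1.55 over the 14 tested probes of 10 genes, with a median of 0.47. The 5 probes that passed through the Nd2-mutant arrays alone are all in this group, and Nsdhl and Sqle count with 4 and 2 probes. The median was 0.43 over the probes detected on all 8 arrays and 0.27 with 1 probe per gene. Sqle encodes squalene epoxidase, which oxidises squalene in the first oxygen-dependent step of the route. The intensity of its probe ILMN_2600348 was 340, 201, 235 and 290 in Nd2-mutant mice 28, 32, 34 and 35 and 33.7, 42.6, 150 and 149 in control mice 15, 16, 17 and 37. Each Nd2-mutant culture lay above each control culture, and control mice 15 and 16 lay far below the other controls. This was a log2 fold change of 1.55 (standard error, SE, 0.39, unadjusted p = 0.00249 and adjusted p = 0.639 from limma), a 2.94-fold difference on the log2(intensity + 16) scale. An exact 2-sided permutation test gave p = 0.0286, which is the lowest value possible with 4 arrays in each strain. The brighter Sqle probe ILMN_2737163 had intensities of 2062, 1554, 1471 and 2365 in the Nd2-mutant mice and of 1378, 815, 1517 and 1296 in the control mice. Here the strains overlapped, since control mouse 17 lay above Nd2-mutant mouse 34, and control mouse 15 lay among the other controls. Its log2 fold change was 0.58 (SE 0.23, unadjusted p = 0.0274 from limma, exact permutation p = 0.0571).

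Cyp51, the lanosterol demethylase, had intensities of 1352, 1154, 1102 and 1304 in Nd2-mutant mice 28, 32, 34 and 35 and of 488, 592, 986 and 793 in control mice 15, 16, 17 and 37. The strains did not overlap, and the spread was wider among the controls, with an SD of 221 against 119 (n = 4 mice each). Between the strains the log2 fold change was 0.81 (SE 0.21, unadjusted p = 0.00284 and adjusted p = 0.639 from limma), or 1.76-fold. Without control mice 15 and 16 it was 0.46. Lss, which closes squalene epoxide into the sterol ring, had intensities of 618, 520, 687 and 657 in the Nd2-mutant and 456, 400, 553 and 425 in the control mice. Control mouse 17 lay above Nd2-mutant mouse 32 and below the other Nd2-mutant mice. The log2 fold change of Lss was 0.43 (SE 0.15, unadjusted p = 0.0182 from limma, exact permutation p = 0.0571).

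Nsdhl, which acts with Sc4mol to remove methyl groups from the sterol ring, had 4 tested probes. The intensity of ILMN_2958207, detected on all 8 arrays, was 50.3, 42.7, 64.9 and 79.0 in Nd2-mutant mice 28, 32, 34 and 35 and 35.4, 31.9, 40.2 and 35.3 in control mice 15, 16, 17 and 37. The 4 Nd2-mutant values lay above the 4 control values. Its log2 fold change was 0.52 (SE 0.17, unadjusted p = 0.0111 from limma). The other 3 probes had larger log2 fold changes, up to 1.44 for ILMN_2594525, and their strains overlapped. On ILMN_2594525, control mice 15 and 16 had intensities of 6.89 and 3.38 and were not detected, whereas control mice 17 and 37 had 83.7 and 62.8, within the range of 58.8 to 130 of the Nd2-mutant mice. Control mice 15 and 16 were thus far below the other controls on 3 of the 4 Nsdhl probes and close to them on ILMN_2958207.

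The remaining 6 genes of this group, with 1 tested probe each, had log2 fold changes from 0.19 to 0.27 and unadjusted p-values above 0.05 in limma. Hsd17b7, which reduces the sterol ketone in demethylation, had the largest of these, with 1414, 1240, 1661 and 1490 in the Nd2-mutant and 1285, 1047, 1399 and 1077 in the control mice. Its strains overlapped. Ebp, the sterol isomerase, was close to it at 0.27 (SE 0.14), Dhcr7, which catalyses the last reduction to cholesterol, had 0.24, and the sterol methyl oxidase Sc4mol and the sterol reductase Tm7sf2 had 0.21 each. Leaving out 1 mouse took Dhcr7 to 0.14 (control mouse 37), Sc4mol to 0.0996 (control mouse 16) and Tm7sf2 to 0.13 (Nd2-mutant mouse 34). Sc5d, the sterol desaturase, had the smallest log2 fold change of the group, 0.19 (SE 0.21). It was detected on all Nd2-mutant and on 2 control arrays, its highest value, 30.2, belonged to control mouse 17, and without control mice 15 and 16 its log2 fold change was -0.12.

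Promoters of 4 of the 6 genes with an unadjusted p under 0.05 are shown, Insig1 being described further on. They are the ones with a CCAAT box. Sterol genes are known to be switched on by SREBP together with NF-Y, which binds CCAAT boxes near the start site. A promoter here is the window of 250 bases before to 50 bases after a RefSeq start site on GRCm38.p6, written from 5′ to 3′ on the gene's strand. CCAAT or its complement ATTGG and the E-box CACGTG are in capitals, searched on both strands; CCAAT and ATTGG can share bases with each other, and CACGTG shares none with either.
Cyp51 promoter (chr5:4104648-4104947, minus strand): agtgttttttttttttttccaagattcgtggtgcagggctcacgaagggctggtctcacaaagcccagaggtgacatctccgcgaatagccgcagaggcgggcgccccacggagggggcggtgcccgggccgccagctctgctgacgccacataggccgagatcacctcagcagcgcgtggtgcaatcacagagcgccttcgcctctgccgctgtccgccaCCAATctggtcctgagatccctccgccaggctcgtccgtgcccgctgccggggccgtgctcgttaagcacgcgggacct
Lss promoter (chr10:76531355-76531654, plus strand): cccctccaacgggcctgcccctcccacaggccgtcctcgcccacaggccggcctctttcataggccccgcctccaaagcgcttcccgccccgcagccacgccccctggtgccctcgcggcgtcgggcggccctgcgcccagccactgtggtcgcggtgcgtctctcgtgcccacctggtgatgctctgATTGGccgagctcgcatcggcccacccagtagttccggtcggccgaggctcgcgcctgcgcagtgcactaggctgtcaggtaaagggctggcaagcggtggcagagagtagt
Nsdhl promoter (chrX:72918271-72918570, plus strand): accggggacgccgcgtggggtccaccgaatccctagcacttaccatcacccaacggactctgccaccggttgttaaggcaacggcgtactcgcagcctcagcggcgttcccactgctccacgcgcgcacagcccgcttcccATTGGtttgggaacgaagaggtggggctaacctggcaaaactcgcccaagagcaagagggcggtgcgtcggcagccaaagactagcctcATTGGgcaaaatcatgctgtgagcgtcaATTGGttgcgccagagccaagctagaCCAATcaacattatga
Insig1 promoter (chr5:28071162-28071461, plus strand): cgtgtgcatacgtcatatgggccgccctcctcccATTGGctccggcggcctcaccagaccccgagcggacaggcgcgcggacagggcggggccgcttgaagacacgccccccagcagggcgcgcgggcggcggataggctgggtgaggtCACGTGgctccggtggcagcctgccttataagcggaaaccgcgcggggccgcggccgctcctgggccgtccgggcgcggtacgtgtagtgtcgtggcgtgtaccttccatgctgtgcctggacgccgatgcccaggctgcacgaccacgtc

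Of the 6 genes, 5 had a window, and CCAAT, on either strand, occurred in 4 of the 5, which are the 4 shown. It occurred 4 times in that of Nsdhl, and CACGTG occurred in that of Insig1. The window of Acat2, not shown, held neither, and there was no window for Sqle. Of 29 windows of 21 tested members, 18 held CCAAT (62.1%) and 6 held CACGTG (20.7%), against 37.4% and 7.15% of all 32851 windows in the table. Counted by gene, 17 of the 21 tested members had CCAAT in at least 1 window, against 11096 of 27025 genes in all. The 4 of 5 genes are not a larger share than the 17 of 21. The sterol element TCACNCCAC was found in 0 of the 29 windows and in 1.24% of all windows. A match of letters is a description of the sequence and not a binding site.

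Of the mevalonate steps, 5 genes were tested, and 4 had a log2 fold change above 0. Acat2, which condenses acetyl-CoA at the head of the route, had intensities of 716, 537, 528 and 633 in Nd2-mutant mice 28, 32, 34 and 35 and of 396, 433, 397 and 389 in control mice 15, 16, 17 and 37. The strains did not overlap, and the 4 control cultures lay close together, with an SD of 19.7 against 88.7 in the mutant (n = 4 mice each). The difference was 0.55 on the log2 scale (SE 0.14, unadjusted p = 0.00278 and adjusted p = 0.639 from limma), or 1.47-fold, and 0.59 without control mice 15 and 16. Mvd and Fdps, which make isopentenyl and farnesyl diphosphate, had log2 fold changes of 0.36 and 0.35 (SEs 0.22 and 0.19). Mvd was 0.20 without Nd2-mutant mouse 35, and Fdps was 0.21 without control mouse 15 and 0.15 without control mice 15 and 16. Fdps was at 3172, 2644, 2322 and 3226 in the Nd2-mutant and at 1652, 2238, 2778 and 2318 in the control mice. Control mouse 17 was within the Nd2-mutant range. Pmvk, the phosphomevalonate kinase, had 0.057 (SE 0.21). Idi1, the isomerase between these steps, had the value -0.25 (SE 0.17), the lowest log2 fold change of the 34 member probes, at intensities of 23.9 to 35.9 in the Nd2-mutant and 27.8 to 47.2 in the control mice.

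**Figure D2:**
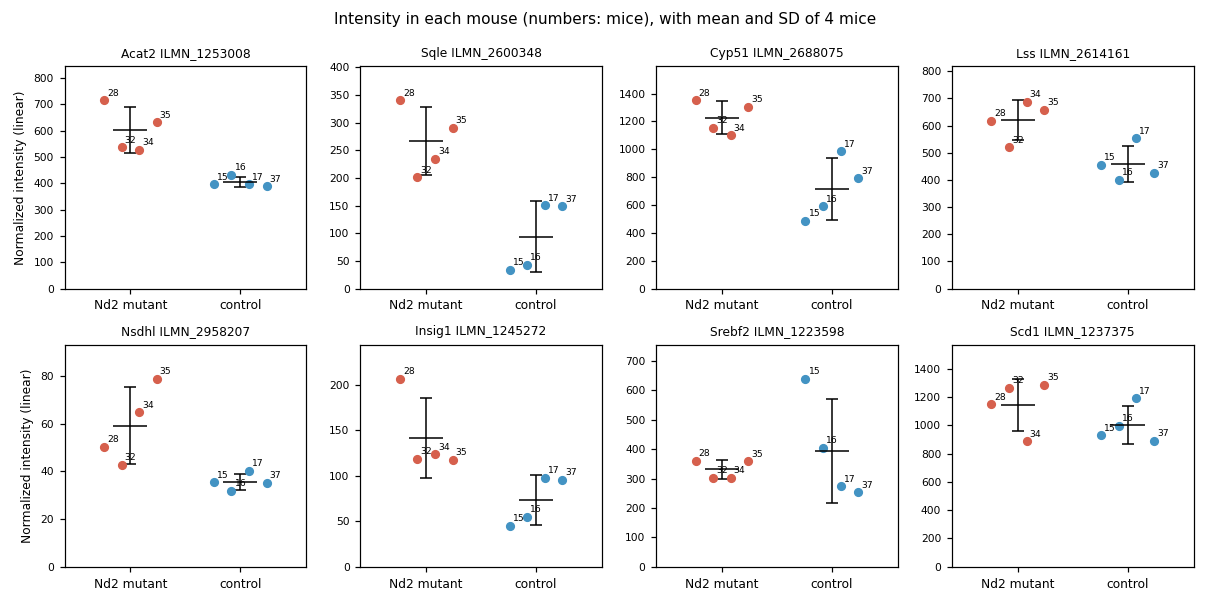
Normalized intensity on a linear scale (vertical axis) of 8 member probes in each of the 4 Nd2-mutant and 4 control mice, with mouse numbers beside the points and the mean and SD as bars. Acat2, Sqle ILMN_2600348, Cyp51, Nsdhl ILMN_2958207 and Insig1 ILMN_1245272 show no overlap between the strains, whereas Lss, Srebf2 and Scd1 overlap; control mouse 15 has the highest Srebf2 value, 640.

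Among the genes of SREBP control, Insig1 had a higher mean in Nd2-mutant fibroblasts, and the direction for Srebf1, Srebf2 and Scap turned with control mice 15 and 16. Insig1 encodes the protein that retains SCAP in the endoplasmic reticulum, and it is itself a target of SREBP. Its probe ILMN_1245272 had intensities of 207, 119, 123 and 117 in Nd2-mutant mice 28, 32, 34 and 35 and of 45.0, 54.7, 97.9 and 95.6 in control mice 15, 16, 17 and 37. The strains did not overlap, and Nd2-mutant mouse 28 stood above the rest. This was a log2 fold change of 0.84 (SE 0.25, unadjusted p = 0.00692 from limma), and that of ILMN_2606693 was 0.98 (SE 0.32, unadjusted p = 0.0110), also without overlap. The brightest Insig1 probe, ILMN_2895388, read 560, 557, 468 and 649 in the Nd2-mutant and 568, 292, 458 and 340 in the control mice. On this probe control mouse 15 was among the high cultures, while it was the lowest of all 8 on both other probes. The log2 fold change of ILMN_2895388 was 0.45 (SE 0.21, unadjusted p = 0.0538), and 0.48 without control mice 15 and 16.

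Srebf2 had intensities of 360, 302, 303 and 359 in Nd2-mutant mice 28, 32, 34 and 35 and of 640, 405, 274 and 254 in control mice 15, 16, 17 and 37. The 4 Nd2-mutant cultures lay between the higher and the lower pair of controls. This gave a log2 fold change of -0.15 (SE 0.26, unadjusted p = 0.577 in limma), which was 0.11 without control mouse 15 and 0.31 without control mice 15 and 16. Scap was ordered in the same way among the controls, at 233, 190, 147 and 129 in mice 15, 16, 17 and 37, against 108, 151, 154 and 162 in the Nd2-mutant mice, with a log2 fold change of -0.24 (SE 0.20), which was -0.10 without control mouse 15 and 0.037 without both. Control mice 15 and 16 were thus the highest in Srebf2 and Scap and the lowest in Cyp51 and in Sqle ILMN_2600348. Srebf1 was at 46.1 to 64.8 in the Nd2-mutant and 37.8 to 62.6 in the control mice, with a log2 fold change of 0.093 (SE 0.16), and -0.069 without the same 2 mice. Stard4, a carrier of cholesterol between membranes, had 0.13 (SE 0.29). The 2 probes of Insig2, a second SCAP-retaining protein, had 0.25 and 0.23, and without control mice 15 and 16 they were -0.12 and -0.27.

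**Figure D3:**
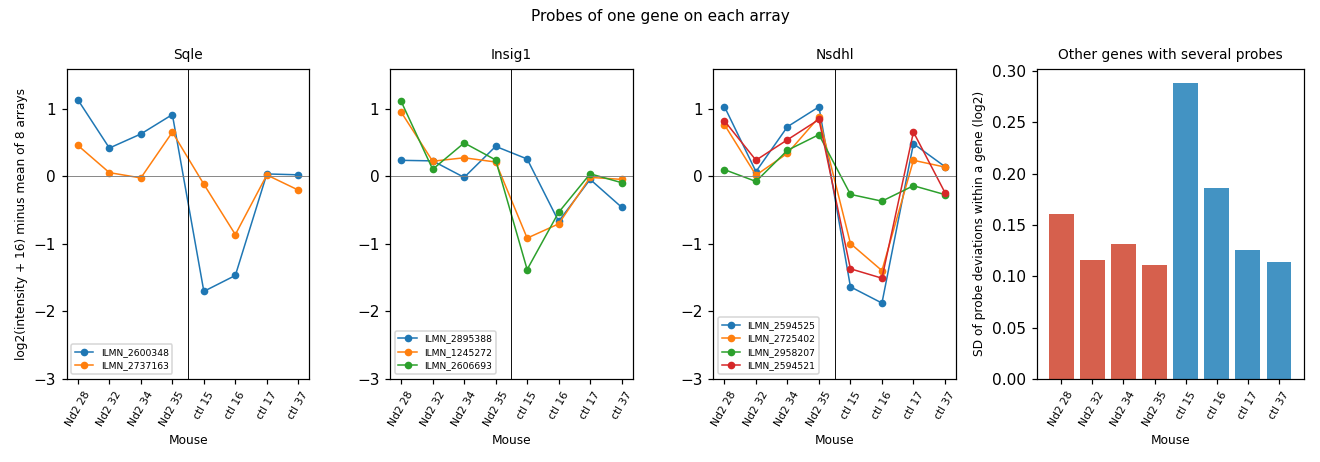
The first 3 panels give the log2(intensity + 16) of each tested probe of Sqle, Insig1 and Nsdhl in each mouse (horizontal axis; Nd2, Nd2 mutant; ctl, control) as the deviation from the mean of the 8 arrays. The last panel gives, over 4250 probes of 1846 other genes, the SD of probe deviations within a gene, which is largest in control mice 15 (0.288) and 16 (0.186).

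The disagreement between probes of Sqle and Nsdhl fell on control mice 15 and 16, and that of Insig1 on control mouse 15. Probes of other genes disagreed most on these arrays too. For Sqle, the log2 difference of ILMN_2600348 from ILMN_2737163 was -4.81 in control mouse 15 and -3.83 in control mouse 16, and it was between -3.21 and -2.54 in the other 6 mice. For Insig1, that of ILMN_2606693 from ILMN_2895388 was -4.01 in control mouse 15 and no lower than -2.58 in the other 7. For Nsdhl, control mice 15 and 16 were not detected on ILMN_2594525 and were detected on ILMN_2958207, which was the dimmer of both probes in the other 6. The part of this disagreement in the strain differences was not tested. Without the 2 mice, the log2 fold changes of Sqle ILMN_2600348 and Nsdhl ILMN_2958207 were 0.75 and 0.46 (unadjusted p = 0.00570 and 0.0488 in limma). Sqle ILMN_2737163, Lss, Insig1 ILMN_1245272 and Insig1 ILMN_2606693 then had 0.38, 0.34, 0.45 and 0.52, with unadjusted p-values of 0.110, 0.0759, 0.0763 and 0.0824. The other 3 Nsdhl probes had 0.31 to 0.40 and no longer passed, whereas Mvd and Insig1 ILMN_2895388, at 0.58 and 0.48, had unadjusted p-values of 0.0413 and 0.0263 without these mice.

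Of the genes of fatty acid synthesis, the 6 tested probes, 1 per gene, had log2 fold changes from 0.16 to 0.34 with a median of 0.23, and 0 had an unadjusted p under 0.05 in limma. Acly, which makes cytosolic acetyl-CoA from citrate, had intensities of 4284, 3787, 3601 and 3428 in Nd2-mutant mice 28, 32, 34 and 35 and of 2511, 3210, 3525 and 3072 in control mice 15, 16, 17 and 37. Control mouse 17 alone reached into the Nd2-mutant range. Between the strains the log2 fold change was 0.30 (SE 0.15, unadjusted p = 0.0727, exact permutation p = 0.0571). Scd1 and Scd2, the stearoyl-CoA desaturases, had 0.19 and 0.34 (SEs 0.16 and 0.25), Elovl6, which elongates palmitate, had 0.26 (SE 0.24), and the polyunsaturated fatty acid desaturases Fads1 and Fads2 had 0.20 and 0.16. Leaving out 1 mouse took Elovl6 to 0.087 (without control mouse 16) or 0.48 (without Nd2-mutant mouse 32). It took Scd2 to 0.19 (without control mouse 15) and Fads1 and Fads2 to 0.095 and 0.086 (without Nd2-mutant mouse 28). In Scd2 the highest value of all mice, 627, and the lowest, 266, both belonged to control mice (17 and 15), and without control mice 15 and 16 its log2 fold change was -0.0016. Fasn lay between 7.70 and 17.8 in the Nd2-mutant and between 5.69 and 20.8 in the control mice, near background. For bulk cultures, more cells of a type and more RNA per cell cannot be told apart.

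The 8 cultures differed among themselves in these genes. The median SD within a strain was 0.32 on the log2 scale over the member probes and 0.26 over all tested probes. By role, it was 0.42 for SREBP control, 0.32 for squalene to cholesterol, 0.27 for the mevalonate steps and 0.22 for fatty acid synthesis. As the median deviation from the mean of the 8 arrays, the member probes stood at 0.31, 0.055, 0.080 and 0.28 in Nd2-mutant mice 28, 32, 34 and 35 and at -0.20, -0.34, 0.043 and -0.21 in control mice 15, 16, 17 and 37. Each Nd2-mutant median lay above each control median, with control mouse 17 close below Nd2-mutant mouse 32. By role, this held for the mevalonate steps only. In squalene to cholesterol, control mouse 17 was at 0.075, above Nd2-mutant mouse 32 at 0.026. In fatty acid synthesis it was at 0.073, above Nd2-mutant mouse 34 at -0.054. In SREBP control these 2 mice were level, at -0.013 each. The member medians include the 5 probes that passed through the Nd2-mutant arrays alone. Over all tested probes, the medians of the 8 mice lay between -0.035 and 0.019. Nd2-mutant mice 35 and 28 held the highest value of the 8 for 12 and 10 of the 34 probes, that is 35.3% and 29.4%, against 9.48% and 13.5% of all tested probes. Control mouse 16 held the lowest for 13 (38.2%, against 11.9%). Control mouse 15 held it for 9 (26.5%), a smaller share than the 31.4% over all tested probes. These counts are by probe, so that a gene with several probes counts more than once. All 4 tested Nsdhl probes were lowest in control mouse 16, and ILMN_2725402, ILMN_2958207 and ILMN_2594521 of Nsdhl were highest in Nd2-mutant mouse 35.

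**Figure D4:**
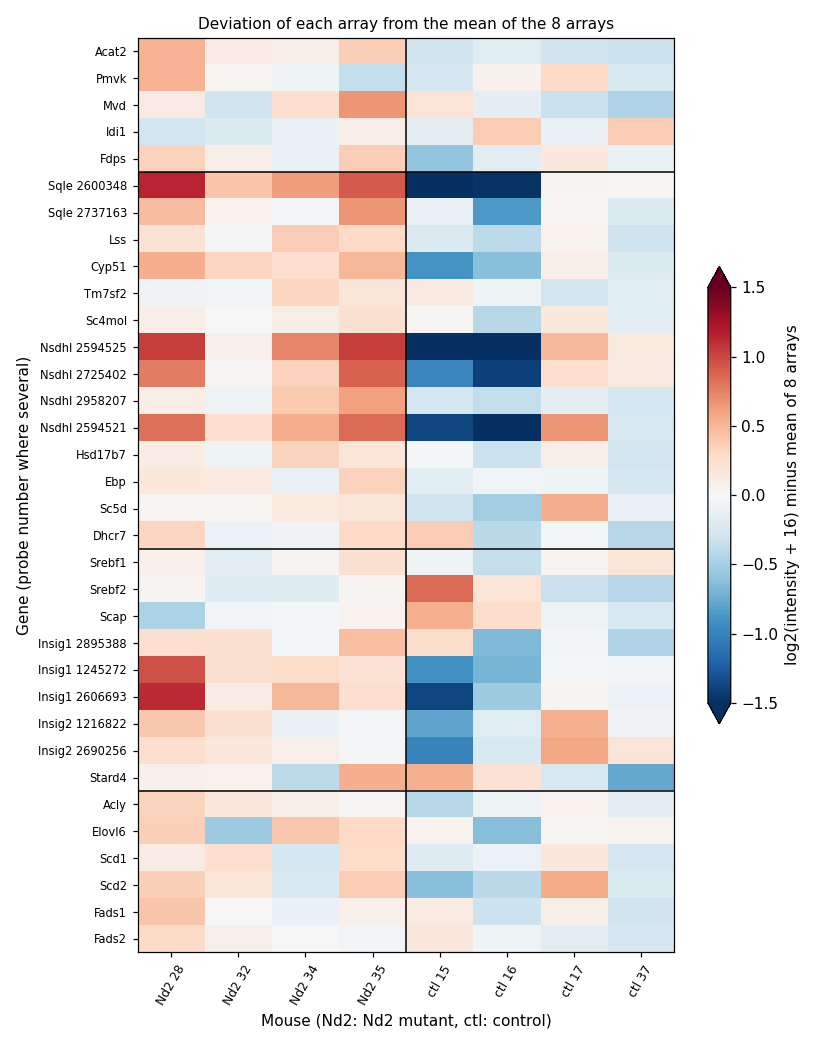
Deviation of each array from the mean of the 8 arrays in log2(intensity + 16) (colour), for the 34 tested member probes (rows, grouped by role) in 4 Nd2-mutant and 4 control mice (columns). Control mouse 16 holds the lowest value for 38.2% of the 34 probes (11.9% of all tested probes), and Nd2-mutant mice 35 and 28 the highest for 35.3% and 29.4% (9.48% and 13.5%), while Srebf2 and Scap are highest in control mouse 15.

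With the strain means removed, the genes of the squalene to cholesterol group tended to go up and down together across the 8 cultures. The median Pearson correlation over the 45 pairs of its 10 genes was 0.42, with 40% of the pairs above 0.5. It was 0.13 for the mevalonate steps, 0.26 for SREBP control, 0.14 for fatty acid synthesis, 0.18 over all 351 pairs of members and 0.0039 over all pairs of the 8003 tested genes. These are descriptions over 8 arrays, which share their normalization, and 19.4% of all gene pairs were above 0.5. Each gene entered with its brightest probe, which for Nsdhl was ILMN_2594525, not detected in control mice 15 and 16. Sc5d and Tm7sf2 were not detected on every control array either. The correlations were not computed without control mice 15 and 16 together, so the part of these 2 arrays in them was not tested.

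Other genes of lipid metabolism were taken from 4 further lists, of which 25 genes with 37 probes were tested. Of these probes, 9 from 8 genes were higher in Nd2-mutant fibroblasts at an unadjusted p under 0.05 in limma (24.3%, against 4.5% of all tested probes) and 0 were lower, with 0 at an adjusted p under 0.05. Some tested probes of these lists, among them a probe counted as higher, passed the filter through the Nd2-mutant arrays alone. The counts are therefore descriptions, as for the members. The number of higher probes was 3 with the methods' t-test, 2 without control mouse 16 and 4 without control mice 15 and 16, where 3.3%, 2.22% and 2.98% of all probes were higher. Of the other sterol synthesis, uptake and storage genes, 5 with 7 probes were tested, with a median log2 fold change of 0.044. Of the genes of SREBP cleavage and INSIG turnover, 2 were tested and 1 was higher, Mbtps1, the protease that makes the first cut in SREBP, with 320, 284, 372 and 349 against 191, 153, 257 and 242 on probe ILMN_1239494. The strains did not overlap there, with a log2 fold change of 0.63 (SE 0.18), while its other tested probes had 0.24 and 0.29.

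Of 5 tested genes of LXR signalling and cholesterol efflux, 2 were higher by this criterion, Nr1h2, which encodes an oxysterol receptor, and Lpcat3, a phospholipid remodelling enzyme, with log2 fold changes of 0.46 and 0.44 on 1 of their 2 tested probes each (ILMN_3085126 and ILMN_2980858). The other probes, ILMN_3014084 of Nr1h2 and ILMN_1237328 of Lpcat3, had 0.030 and 0.30. Of 13 tested other genes of fatty acid and glycerolipid synthesis, 4 were higher, Acss2, Acsl1, Acsl3 and Elovl1. Acss2, which makes acetyl-CoA from acetate, had 489, 238, 182 and 270 in the Nd2-mutant and 133, 188, 234 and 130 in the control mice. The strains overlapped at a log2 fold change of 0.68 (SE 0.28). The acyl-CoA synthetases Acsl1 and Acsl3 had 0.39 and 0.53. The fatty acid elongase Elovl1 had 0.66 and 0.72 on ILMN_1224780 and ILMN_2771824 and -0.31 and -0.18 on ILMN_2723491 and ILMN_3143506, so that its probes went in opposite directions. On ILMN_3143506 each Nd2-mutant value lay below each control value. On ILMN_1224780, control mice 15 and 16 had 13.8 and 20.7, and the other controls 67.6 and 48.0.

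Fibroblast, proliferation and macrophage genes were set beside these results. Of 11 tested fibroblast marker probes, 2 were higher in Nd2-mutant fibroblasts at an unadjusted p under 0.05, those of Lum and of Dcn (ILMN_2596346), with log2 fold changes of 0.88 and 0.82 (18.2%, against 4.5% of all tested probes). Control mouse 16 had the lowest value of both, and the brighter Dcn probe ILMN_2747959 had 0.12 (unadjusted p = 0.628 in limma). Of 14 tested probes of proliferation genes, 0 had an unadjusted p under 0.05, and the median log2 fold change was 0.13. Their median deviation was -0.57 in control mouse 15 and between -0.10 and 0.35 in the other 7 mice. Of 5 tested macrophage probes, 4 had a log2 fold change above 0 (80%, against 50.2% of all tested probes), and the median was 0.68. The probes of Lyz2, Cd68 and C1qb passed the filter through the Nd2-mutant arrays alone. They had to be bright there, so that this share and this median are descriptions. None of the 5 had an unadjusted p under 0.05 in limma, against 7.63% of all tested probes. Their median deviation was highest in Nd2-mutant mouse 35, at 2.03, and lowest in control mouse 16, at -0.87. The part of the fibroblast, proliferation and macrophage genes in the difference of the sterol genes was not tested. Without Nd2-mutant mouse 35, which had the highest macrophage markers, 9 of the 34 member probes were higher at an unadjusted p under 0.05 (26.5%) and 0 lower, against 3.36% and 2.09% of all probes.

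For sex, few member probes passed even without adjustment. With strain as a term in limma, 2 of the 34 member probes were higher in males at an unadjusted p under 0.05 and 0 lower, against 3.86% and 4.45% of all tested probes, and 0 had an adjusted p under 0.05, where the share of all tested probes was 0.0192%. They were Pmvk, with a log2 difference of 0.46 (SE 0.16, unadjusted p = 0.0163), and Insig2 ILMN_1216822, with 0.48 (SE 0.21, unadjusted p = 0.0458). Pmvk was at 107, 71.5, 73.8 and 89.3 in males 28, 32, 16 and 17 and at 65.9, 50.2, 55.8 and 57.4 in females 34, 35, 15 and 37. The 4 males lay above the 4 females. The interaction of strain and sex had an unadjusted p under 0.05 for 0 of the 34 member probes, against 1.77% of all tested probes, and its median was -0.13 on the log2 scale. The smallest adjusted p of a member in this interaction was 0.9999, and over all tested probes 0.0096% had an adjusted p under 0.05.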

How the data were processed

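RNA of skin fibroblasts from 4 Nd2-mutant and 4 control mice was hybridised to Illumina MouseRef-8 v2.0 arrays. Probe data were taken from the scans with GenomeStudio by the authors, who applied quantile normalization and, where needed, background subtraction. Each deposited intensity is linear, and beside it stands a deposited detection p-value. The deposited tables of normalized and non-normalized data hold the same bytes, so 1 was used. Chips are not named.

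Intensities were raised to at least 0 and converted to log2(intensity + 16). Probes detected (p-value under 0.01) on all 4 arrays of at least 1 strain were tested with limma 3.58.1 (lmFit, eBayes) in R 4.3.3. The 2-sided p-values were adjusted by Benjamini-Hochberg across the 10414 probes, at a threshold of 0.05. For single probes an exact permutation test over the 70 splits was added. Males and females were compared in a fit that included strain, and a further fit held a strain-by-sex interaction. The steps were tested on simulated data.

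Members were matched by symbol and described by role, as counts and medians. The members and lists were chosen with earlier results of these data known, so that no list was tested as a set. All members were named. The value in each mouse was given for at least 1 probe of each gene with an unadjusted p under 0.05 or no overlap, and for some extremes of the role groups. Of the other lists, the genes with an unadjusted p under 0.05 and the largest change were named. The values of 1 gene of these lists are not reported here. Promoters came from RefSeq (GRCm38.p6); all 32 members matched a RefSeq gene, Sc4mol through a synonym, and 21 tested genes had a window. The number of arrays limits the precision. Alternatives were another value added before log2, the linear scale, other filters, the methods' t-test, a trend in eBayes, array weights, sex as a term, cyclic loess and leaving out each mouse. Leaving out control mice 15 and 16 together and using 1 probe per gene were added after the data had been seen.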

Additional observations from a re-analysis of the deposited data

Results flagged for a closer look

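In 3 of 76 groups of 4 mice, made from the 34 member probes and the medians of the 4 role groups in each strain, a single mouse stood off: the distance to its closest neighbour exceeded 0.829 of the range of the 4, on the log2 scale. Chance gives about 1 in 20 such groups, or 3.8 of 76. For Elovl6 the ratio was 0.949 in the control mice, where mouse 16 had 157 and the others between 259 and 265, and 0.888 in the Nd2-mutant mice, where mouse 32 had 169 and the others between 318 and 343. For Insig1 ILMN_1245272 it was 0.915 in the Nd2-mutant mice, where mouse 28 had 207 and the others between 117 and 123.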

How the results depend on the processing

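No member probe passed an adjusted p of 0.05 in limma or the methods' t-test under any alternative run. Of the 34 member probes, 25 kept their direction under all of them. The count of member probes higher at an unadjusted p under 0.05 was 11 as reported (32.4%, against 4.5% of all tested probes). When 1 mouse was left out, it was between 7 (20.6%, against 2.22%, without control mouse 16) and 15 (44.1%, against 8.06%, without control mouse 17). The share of all probes thus rose as well without control mouse 17. The count was 6 without control mice 15 and 16 (17.6%, against 2.98%) and 5 with 1 probe per gene (18.5%, against 3.31%). In each of these runs 0 were lower. With control mice 15 and 16 left out, the median log2 fold change of the mevalonate steps was 0.15, and 4 probes of the other lists were higher. Those mice also decided some directions: without both, the log2 fold change was -0.12 for Insig2 ILMN_1216822, -0.27 for Insig2 ILMN_2690256, -0.00795 for Pmvk, -0.12 for Sc5d, 0.037 for Scap, -0.00156 for Scd2, -0.069 for Srebf1 and 0.31 for Srebf2. With array weights it was -0.081 for Insig2 ILMN_2690256, -0.011 for Srebf1 and 0.14 for Srebf2. Leaving out 1 mouse gave a range from -0.11 to 0.19 for Pmvk, from -0.10 to 0.33 for Stard4, from -0.063 to 0.46 for Insig2 ILMN_2690256, from -0.32 to 0.11 for Srebf2 and from -0.012 to 0.17 for Srebf1.

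With 1 probe per gene the median was 0.27 for squalene to cholesterol, 0.11 for SREBP control and 0.15 for the other lists. The median of SREBP control was 0.13 on the linear scale, 0.11 without a filter, and between 0.11 and 0.46 when 1 mouse was left out. For the other lists, the median was 0.15 with probes detected on at least 1 array, 0.094 without a filter and between 0.14 and 0.23 when 1 mouse was left out. The count of their higher probes was 5 on the linear scale and 3 with the methods' t-test, where 3.48% and 3.3% of all probes were higher. When 1 mouse was left out, it was between 2 (without control mouse 16) and 10 (without control mouse 17), where 2.22% and 8.06% of all probes were higher. The count of their lower probes was 1 without a filter and between 0 and 1 when 1 mouse was left out. For males against females, the count of higher probes was 1 with 1 added before log2, 1 with a trend in eBayes and between 0 and 3 when 1 mouse was left out, and that of lower probes between 0 and 1. Without a filter, 1 probe had a positive and 1 a negative interaction at an unadjusted p under 0.05. The median correlation between members was between 0.15 and 0.27 when 1 mouse was left out. The cause of these shifts was not tested.

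No paired analysis was possible because no sample number occurs in both strains. An alternative from raw values by normexp could not be made, as both tables are normalized, nor a block for the chip, as none is given. Signal over background limits the dim probes, such as those of Fasn, Sc5d and Tm7sf2, as at most 44.2% of the probes were detected on an array.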
